A study of Mus musculus with 6 samples.

Results

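The 10 genes described here were chosen by name as parts of the Wnt pathway. They are the receptors Lrp5 and Lrp6, the ligand Wnt5a, the secreted antagonists Dkk2, Dkk3, Sfrp1 and Sfrp2, the nuclear factors Lef1 and Tcf7, and the target gene Axin2. Of these, 9 had a row among the 21686 genes of the count table, and Sfrp1 was not analysed here. Their RNA was measured in MC3T3-E1 Subclone 14, a clonal line of mouse osteoblast precursors, so that every library came from 1 cell line. The control cells received 100 µL of PBS. The dexamethasone cells received 10 µM of dexamethasone, a synthetic glucocorticoid. The dexamethasone + EPC-EVs cells received the same 10 µM of dexamethasone together with 100 µg of extracellular vesicles secreted by endothelial progenitor cells of mouse bone marrow (EPCs-exo in the labels). All 3 groups were cultured for 72 hours, and each had 2 libraries. The text of the series names fibroblasts and a shorter culture, and the sample labels were followed.

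In the canonical Wnt pathway, a secreted Wnt protein joins a Frizzled receptor to an LRP co-receptor, the destruction complex is held back, and beta-catenin enters the nucleus and activates genes together with factors of the TCF and LEF family. Secreted antagonists act outside the cell, the Sfrp proteins by binding Wnt ligands and several Dickkopf proteins by binding the LRP co-receptors. In bone, the pathway is known for promoting the formation and activity of osteoblasts, and glucocorticoids are known for restraining both.

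The libraries held between 5146760 and 13182014 counts, and the 2 dexamethasone + EPC-EVs libraries were the deepest. A count of 0 allowed up to 3 counts, for counting error only. This was between 0.228 and 0.583 CPM (read counts scaled to library size), without TMM normalization. All other CPM values include TMM normalization over the 6 libraries. Mitochondrially encoded genes took 8.04% of the counts in control and 5.66% in dexamethasone, but 0.596% in dexamethasone + EPC-EVs (means of 2 libraries). All 12 osteoblast markers had a row, and their summed level ranged from 16100.5 to 17654 CPM in control, from 17359 to 17826 CPM in dexamethasone and from 23418 to 29378 CPM in dexamethasone + EPC-EVs. The sum was carried by a few genes, since the median marker had 109, 90.4 and 47.2 CPM in the same order of groups. Of 10 osteoblast markers tested between dexamethasone + EPC-EVs and dexamethasone, 3 were called higher (Col1a1, Col1a2 and Sparc) and 2 lower (Spp1 and Phex) at an adjusted p under 0.05, where 39.8% of all genes were called, and Dmp1, at 340.9 CPM in dexamethasone and 138 and 26.1 CPM in the dexamethasone + EPC-EVs libraries, was not called. Alpl, Bglap, Bglap2 and Ibsp were low in every group, with group means of at most 3.60 CPM. The 9 endothelial and progenitor markers with a row summed to 479 to 536, 479 to 487 and 332 to 408 CPM in the same order of groups. The 5 blood cell markers with a row summed to 29.2 to 32.2, 39.5 to 45.2 and 41.7 to 69.4 CPM. Of these, Csf1r had 12 and 0 counts in control, 20 and 8 in dexamethasone and 56 and 471 in dexamethasone + EPC-EVs, so that its level was set mostly by replicate 2, and it was called higher against control (edgeR's quasi-likelihood test, adjusted p = 0.0259) but not against dexamethasone (0.0580). Of the endothelial and progenitor markers, Cd34 (393, 364 and 264 CPM) and Flt1 (109, 115 and 103 CPM) were abundant in every group, while Cdh5, Tek, Prom1, Emcn, Esam, Pecam1 and Vwf had group means of at most 3.08 CPM. In dexamethasone + EPC-EVs, Pecam1 (1 and 21 counts), Esam (0 and 14) and Emcn (0 and 6) were seen mainly in replicate 2, and Cdh5, Tek and Prom1 were at 0 in both libraries. Of 10 tested genes known as glucocorticoid receptor targets, 0 were called between dexamethasone and control by edgeR's quasi-likelihood test, beside 0.0544% of all genes. An unadjusted p under 0.05 from this test was found for 2 (10.9% of all genes had one), Dusp1 (-0.44 on the log2 scale) and Errfi1 (-0.53), both lower. Between dexamethasone + EPC-EVs and dexamethasone, 6 of the 10 were called, beside 39.8% of all genes. Of these, 4 were higher, among them Tsc22d3 (5.27-fold) and Dusp1 (4.64-fold), and 2 were lower, the metallothionein genes Mt1 (13.8-fold) and Mt2 (4.01-fold). The libraries of a group are described as biological replicates with no word on separate cultures, so p-values measure the spread between these libraries. In bulk RNA, fewer cells that express a gene and less RNA per cell cannot be told apart. The part of depth, of these marker levels and of the mitochondrial share in the results below was not tested beyond the alternatives given beside them.

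Between dexamethasone + EPC-EVs and dexamethasone, the RNA of 2 genes listed as secreted antagonists rose and that of 1 nuclear factor fell. Sfrp2 rose 15.6-fold and Dkk3 rose 2.1-fold. Lef1 fell 3.02-fold, a call made under 8 of 15 alternatives, with log2 fold changes between -2.21 and -0.65 over them. The receptors Lrp5 and Lrp6, the ligand Wnt5a, the nuclear factor Tcf7 and the target Axin2 did not pass the test. Calls rest on an adjusted p below 0.05 from the quasi-likelihood test of edgeR with adjustment by the method of Benjamini and Hochberg, named from here on the edgeR adjusted p. By this rule 3 of the 8 genes tested were called (37.5%), where 39.8% of all 13556 genes tested were called, 20.9% higher and 18.9% lower, so the share among the Wnt genes was near that of all genes. The median log2 fold change of the 8 genes was -0.11, and that of all genes tested was 0.01. The libraries of the 2 groups did not overlap for 6 of the 8 genes, against 72.6% of all genes tested. Between dexamethasone and control, 0 of the 9 genes were called, where 0.0544% of 12879 genes tested were called. Between dexamethasone + EPC-EVs and control, 4 of the 9 genes were called (44.4%), where 36.4% of 13511 genes tested were called, 19.1% higher and 17.2% lower. Each pair of these comparisons shares the 2 libraries of a group, so their values are given side by side and are not independent.

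**Figure D1:**
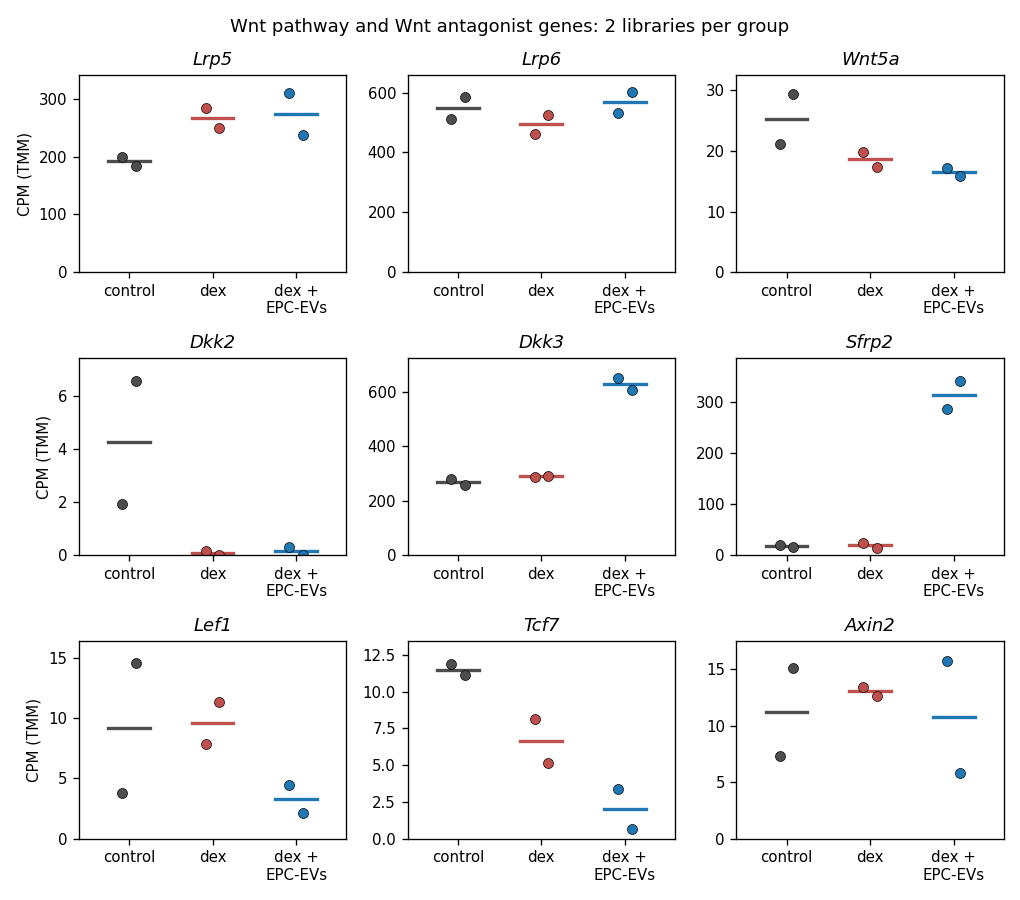
CPM (TMM over 6 libraries, linear axes from 0, a scale of its own for each gene) of the 9 Wnt genes by group. Points are libraries and lines are means of 2 libraries. Both dexamethasone + EPC-EVs libraries of Sfrp2 (287 and 341 CPM) and Dkk3 (650.2 and 604 CPM) lie above all libraries of the other groups.

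Sfrp2 encodes a secreted frizzled-related protein, which carries a Frizzled-like domain and binds Wnt ligands outside the cell. The gene lies at chr3:83766321-83774316 on the plus strand of GRCm38 and overlaps Gm26771 on the other strand. Dkk2 encodes a Dickkopf protein that binds the LRP co-receptors, and lies at chr3:132085292-132180304 on the plus strand. The 250 bases before their annotated starts are shown because these antagonists had the largest rise and the lowest counts among the 9 genes. The sequences are from RefSeq (GRCm38.p6, plus strand, 5′ to 3′), and capitals mark the letters TATAAA.
Sfrp2, chr3:83766071-83766320: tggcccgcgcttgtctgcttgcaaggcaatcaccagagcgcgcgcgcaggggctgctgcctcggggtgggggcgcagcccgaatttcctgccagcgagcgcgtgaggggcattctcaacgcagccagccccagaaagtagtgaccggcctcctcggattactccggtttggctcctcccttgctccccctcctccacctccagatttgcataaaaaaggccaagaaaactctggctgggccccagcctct
Dkk2, chr3:132085042-132085291: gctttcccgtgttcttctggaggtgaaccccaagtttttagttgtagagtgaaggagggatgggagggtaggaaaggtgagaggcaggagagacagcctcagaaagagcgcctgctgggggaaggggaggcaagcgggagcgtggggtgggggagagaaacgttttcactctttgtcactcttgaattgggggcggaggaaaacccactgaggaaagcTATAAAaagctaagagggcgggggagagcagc
The Sfrp2 stretch was 63.6% G and C with 16 CG dinucleotides, the Dkk2 stretch 55.6% with 7, and the median of 32851 mouse promoters was 52.4%. TATAAA on the gene's strand began 32 bases before the start of Dkk2, at position -32, and was found in 8.32% of all promoters in windows of 250 bases before to 50 bases after the start. The TCF/LEF motif, searched on both strands as CTTTG followed by AA, AT, TA or TT, were in neither the Sfrp2 nor the Dkk2 window. Among the 9 promoters listed for Dkk2, Sfrp2, Lef1, Tcf7 and Axin2, 1 of Lef1 held it, on the minus strand at position -147, and 16.9% of all promoters did. The palindromic motif of the glucocorticoid receptor, on both strands, was in 0 of these 9 promoters and in 0.00913% of all promoters.

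Sfrp2 RNA was low in cells without the vesicles and high in cells that had received them. Its counts were 121 and 81 in control, 164 and 102 in dexamethasone and 3623 and 4345 in dexamethasone + EPC-EVs. The levels were 17.9 ± 2.54, 19.4 ± 6.26 and 314 ± 38.3 CPM (SD, n = 2 each). The lowest dexamethasone + EPC-EVs library (287 CPM) lay far above the highest other library (23.9 CPM), and the control and dexamethasone libraries overlapped. Relative to dexamethasone, Sfrp2 RNA in dexamethasone + EPC-EVs was 3.97 higher on the log2 scale (SE 0.21, edgeR adjusted p = 3.45e-07). Against control the difference was 4.08 (SE 0.23, edgeR adjusted p = 7.07e-05). Between dexamethasone and control it was 0.11 (SE 0.36, edgeR adjusted p = 0.944). The rise against dexamethasone was called under all 15 alternatives, with log2 fold changes between 3.62 and 4.36.

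Dkk3, which encodes a divergent member of the Dickkopf family, lies at chr7:112116017-112159057 on the minus strand. It was listed here among the secreted antagonists, and an action of its protein on Wnt signals was not measured. It had 1724 and 1301 counts in control, 1979 and 1969 in dexamethasone and 8209 and 7699 in dexamethasone + EPC-EVs. The levels were 269.9 ± 15.4, 289 ± 1.25 and 627 ± 32.4 CPM (SD, n = 2 each). The dexamethasone + EPC-EVs libraries stood above the other 4, which lay within a narrow range of 259 to 289.9 CPM. Dkk3 RNA in dexamethasone + EPC-EVs exceeded that in dexamethasone by 1.07 on the log2 scale (SE 0.12, edgeR adjusted p = 3.93e-05) and that in control by 1.17 (SE 0.17, edgeR adjusted p = 0.00150). Between dexamethasone and control the difference was 0.09 (SE 0.15, edgeR adjusted p = 0.861). Both rises were called under all 15 alternatives, the one against dexamethasone with log2 fold changes between 0.88 and 1.14.

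Dkk2 was nearly undetected outside the control libraries. It had 12 and 33 counts in control, 1 and 0 in dexamethasone, and 4 and 0 in dexamethasone + EPC-EVs. The control libraries differed from each other, at 1.95 and 6.57 CPM, while the other 4 libraries were near or under the limit that a count of 0 allows. Per count, Dkk2 was lower in dexamethasone + EPC-EVs than in control by a ratio of 25.6 (95% interval 9.32 to 97.9, exact binomial, for counting error only). The fitted difference passed the test (edgeR adjusted p = 0.0326). It was not called without control replicate 2 (edgeR adjusted p = 0.174), without dexamethasone + EPC-EVs replicate 2 (0.199), with a replicate block (0.0839) or in limma with a pseudocount of 1 (0.0577), with adjusted p between 0.00566 and 0.199 over all alternatives. For dexamethasone against control the ratio was 55.1 (95% interval 9.39 to 2223) and the edgeR adjusted p was 0.309. It was called without control replicate 1 (edgeR adjusted p = 0.00976, and up to 0.9999 under other alternatives), a setting that leaves 1 control library, assumed to vary like the dexamethasone pair, and in which 2200 genes were called in place of 7. Between dexamethasone + EPC-EVs and dexamethasone, with 4 counts against 1, Dkk2 did not pass the filter on low counts.

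Lef1 and Tcf7 encode DNA-binding factors that act with beta-catenin in the nucleus, and both were weakly expressed. Lef1 (chr3:131110471-131224356, plus strand) had 23 and 73 counts in control, 54 and 77 in dexamethasone and 56 and 27 in dexamethasone + EPC-EVs. The levels were 9.14 ± 7.63, 9.60 ± 2.46 and 3.28 ± 1.64 CPM (SD, n = 2 each). Both dexamethasone + EPC-EVs libraries lay below both dexamethasone libraries, while 1 control library (3.75 CPM) lay between the dexamethasone + EPC-EVs libraries. Lef1 fell by 1.59 on the log2 scale in dexamethasone + EPC-EVs against dexamethasone (SE 0.52, edgeR adjusted p = 0.0286). The difference against control was -1.52 (SE 0.75, edgeR adjusted p = 0.149), and that between dexamethasone and control was 0.07 (SE 0.62, edgeR adjusted p = 0.984). The call of the fall against dexamethasone was lost in several settings, among them those without dexamethasone replicate 1, dexamethasone replicate 2 or dexamethasone + EPC-EVs replicate 2. This fall was called under 8 of 15 alternatives, with log2 values between -2.21 and -0.65 over all of them. Against control it was called without control replicate 1 (edgeR adjusted p = 0.0158, and up to 0.845 under other alternatives).

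Tcf7 (chr11:52252371-52283014, minus strand) had 73 and 56 counts in control, 56 and 35 in dexamethasone and 43 and 8 in dexamethasone + EPC-EVs. The levels were 11.5 ± 0.526, 6.65 ± 2.12 and 2.02 ± 1.96 CPM (SD, n = 2 each). The 3 groups did not overlap, with control highest and dexamethasone + EPC-EVs lowest, and the dexamethasone + EPC-EVs libraries stood apart from each other at 3.41 and 0.628 CPM. Tcf7 fell by 2.56 on the log2 scale in dexamethasone + EPC-EVs against control (SE 0.76, edgeR adjusted p = 0.0302), a 5.88-fold difference. It was -1.76 against dexamethasone (SE 0.74, edgeR adjusted p = 0.0790), and -0.80 in dexamethasone against control (SE 0.49, edgeR adjusted p = 0.572). The fall against control was lost without control replicate 1 (edgeR adjusted p = 0.0508) or without dexamethasone + EPC-EVs replicate 2 (0.121), with adjusted p from 0.000731 upward and log2 values between -4.20 and -1.67 over all alternatives. The difference from dexamethasone was called under 3 of 15 alternatives, without the filter on low counts (edgeR adjusted p = 0.0305), with a replicate block (0.0286) and, at -3.41, without dexamethasone + EPC-EVs replicate 1 (0.00685), with adjusted p up to 0.340 under the others. Both genes overlap other annotated genes, Lef1 with Gm42449 on the same strand and Gm43352 on the other, and Tcf7 with Gm26551 on the same strand and A630014C17Rik on the other, so some of their counts are less certain.

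The RNA of the co-receptors was not called in any comparison. Lrp6 (chr6:134446476-134566965, minus strand), a co-receptor of Frizzled for canonical Wnt signals, had 3136 and 2933 counts in control, 3167 and 3576 in dexamethasone and 6703 and 7688 in dexamethasone + EPC-EVs. The levels were 547 ± 51.6, 494 ± 46.2 and 567 ± 51.3 CPM (SD, n = 2 each). The 2 dexamethasone + EPC-EVs libraries (531 and 603 CPM) lay just above the dexamethasone libraries (461 and 526 CPM) and overlapped the control libraries. The differences were -0.16 for dexamethasone against control (SE 0.15, edgeR adjusted p = 0.740), 0.15 for dexamethasone + EPC-EVs against dexamethasone (SE 0.13, edgeR adjusted p = 0.357) and 0.00 against control (SE 0.18, edgeR adjusted p = 0.993). After correction for GC content and length, by removing a fitted trend, the difference between dexamethasone + EPC-EVs and dexamethasone was 0.51 and was called (edgeR adjusted p = 0.00733, and up to 0.763 under other alternatives).

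Lrp5 (chr19:3584828-3686564, minus strand), the related co-receptor whose loss lowers bone mass, had 1221 and 927 counts in control, 1949 and 1694 in dexamethasone and 3918 and 3020 in dexamethasone + EPC-EVs. The levels were 192 ± 10.2, 267 ± 24.3 and 274 ± 51.8 CPM (SD, n = 2 each). All 4 libraries with dexamethasone lay above both control libraries, and the dexamethasone + EPC-EVs libraries spanned those of dexamethasone. The difference was 0.47 on the log2 scale in dexamethasone against control (SE 0.16, edgeR adjusted p = 0.351), 0.47 in dexamethasone + EPC-EVs against control (SE 0.20, edgeR adjusted p = 0.0967) and -0.01 in dexamethasone + EPC-EVs against dexamethasone (SE 0.15, edgeR adjusted p = 0.971). Without control replicate 1, the difference between dexamethasone and control was 0.53 and was called (edgeR adjusted p = 0.00633, and up to 0.9999 under other alternatives), in the same setting of 1 control library in which 2200 genes were called. Against control, the dexamethasone + EPC-EVs value was called with all 6 libraries in one fit (edgeR adjusted p = 0.0414, and up to 0.685 under other alternatives) and was -0.12 after correction for GC content and length.

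Wnt5a (chr14:28504750-28527448, plus strand) encodes a ligand known mainly for signalling without beta-catenin, and it overlaps Gm2670 on the other strand. Its counts were 130 and 148 in control, 136 and 118 in dexamethasone and 217 and 203 in dexamethasone + EPC-EVs. The levels were 25.3 ± 5.86, 18.6 ± 1.72 and 16.6 ± 0.885 CPM (SD, n = 2 each). The 3 groups did not overlap and were ordered from control down to dexamethasone + EPC-EVs, but no difference passed the test. They were -0.45 for dexamethasone against control (SE 0.32, edgeR adjusted p = 0.641), -0.21 for dexamethasone + EPC-EVs against dexamethasone (SE 0.27, edgeR adjusted p = 0.572) and -0.66 against control (SE 0.32, edgeR adjusted p = 0.143). Without control replicate 1, the last of these was -0.84 and was called (edgeR adjusted p = 0.0466, and up to 0.483 under other alternatives).

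Axin2 (chr11:108920349-108950783, plus strand) is a negative regulator of the pathway and one of its most widely used target genes. It had 45 and 76 counts in control, 92 and 86 in dexamethasone and 198 and 74 in dexamethasone + EPC-EVs. The levels were 11.2 ± 5.51, 13.0 ± 0.518 and 10.7 ± 6.98 CPM (SD, n = 2 each). The dexamethasone + EPC-EVs libraries (15.7 and 5.81 CPM) held the highest and the lowest value of the 6, so the groups overlapped in every comparison. The differences were 0.21 for dexamethasone against control (SE 0.47, edgeR adjusted p = 0.908), -0.32 for dexamethasone + EPC-EVs against dexamethasone (SE 0.44, edgeR adjusted p = 0.595) and -0.11 against control (SE 0.58, edgeR adjusted p = 0.904). A change of Axin2 was not detectable at this spread, and 0 of its alternatives gave a call in any comparison. It overlaps Gm11670 on the other strand.

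**Figure D2:**
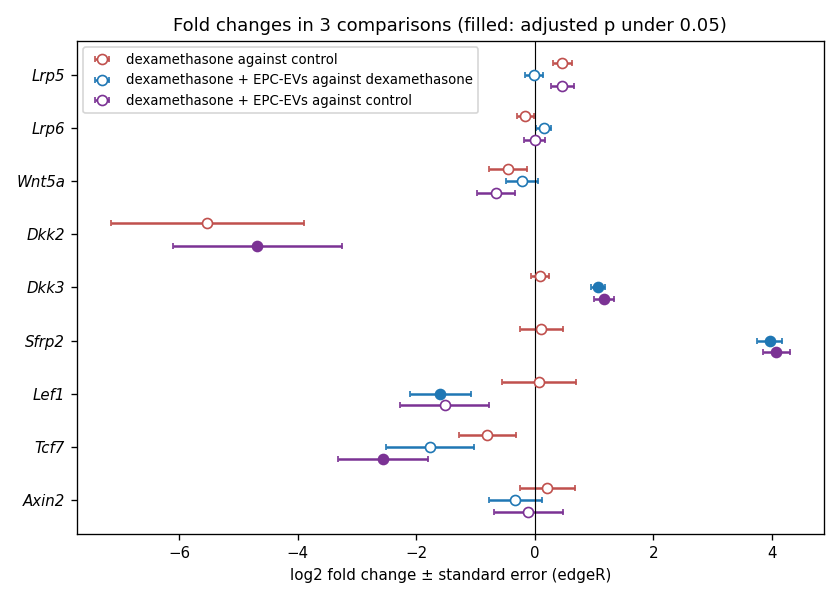
Log2 fold change (horizontal axis) with its standard error from edgeR for the 9 Wnt genes in 3 comparisons, filled where the adjusted p was under 0.05. Sfrp2 and Dkk3 lie to the right in both comparisons of dexamethasone + EPC-EVs and near 0 for dexamethasone against control, and Dkk2 has no value for dexamethasone + EPC-EVs against dexamethasone, where it did not pass the filter.

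In dexamethasone against control, unadjusted p-values under 0.05 were found for Lrp5 and Dkk2, 2 of the 9 genes, where 10.9% of all genes tested had one. DESeq2 gave an adjusted p for Lrp5, Lrp6 and Dkk3 alone and called 0 of these 3. The libraries did not overlap for 5 genes, Lrp5 and Dkk3 higher and Wnt5a, Dkk2 and Tcf7 lower in dexamethasone, where 44.1% of all genes tested did not overlap. The median log2 fold change of the 9 genes was 0.07 and that of all genes tested was 0.01. In dexamethasone + EPC-EVs against control, the called genes were Sfrp2 and Dkk3, higher, and Dkk2 and Tcf7, lower. There 6 of the 9 genes did not overlap, where 73% of all genes tested did not, and the medians were -0.11 and 0.02.

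Levels between genes were compared as FPKM as deposited, which divide the counts by gene length and library size. In control the order was Dkk3 (79.5), Lrp6 (39.6), Lrp5 (19.5), Sfrp2 (8.24), Tcf7 (4.34), Wnt5a (3.19), Axin2 (2.01), Dkk2 (1.13) and Lef1 (1.02 FPKM, means of 2 libraries), and of these neighbours only Axin2 with Dkk2 and Dkk2 with Lef1 overlapped. In dexamethasone the first 4 kept this order without overlap, Tcf7, Wnt5a and Axin2 overlapped in turn, and Dkk2 came last. In dexamethasone + EPC-EVs, Sfrp2 moved to the second place at 142 FPKM, between Dkk3 (181.9) and Lrp6 (40.4), without overlapping either. Wnt5a, Axin2, Tcf7 and Lef1 followed Lrp5, each overlapping its neighbour.

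Summed over Dkk2, Dkk3 and Sfrp2, the antagonists had 93.5 and 84.3 FPKM in control, 101.1 and 96.4 in dexamethasone and 321 and 327 in dexamethasone + EPC-EVs. The summed Lrp5 and Lrp6 ranged from 57.9 to 69.4 FPKM over the 6 libraries. The ratio of the first sum to the second was 1.61 and 1.40 in control, 1.54 and 1.45 in dexamethasone and 4.62 and 4.94 in dexamethasone + EPC-EVs. The summed RNA of Dkk2, Dkk3 and Sfrp2 thus stood far higher against the co-receptor RNA in both vesicle-treated libraries, while control and dexamethasone overlapped. The other secreted antagonists tested were outside this sum. From dexamethasone to dexamethasone + EPC-EVs, mean FPKM went from 9.69 to 3.16 for Draxin, 40.6 to 31.9 for Igfbp4 and 0.347 to 0.716 for Notum. The libraries of Igfbp4 and those of Notum overlapped. Sfrp2 was 11.0% and 9.71% of the Dkk3 level in control, 12.9% and 8.08% in dexamethasone, and 68.9% and 88.0% in dexamethasone + EPC-EVs. Summed Lef1 and Tcf7 were lowest in dexamethasone + EPC-EVs, at 4.97 and 5.76, 4.17 and 3.36, and 1.77 and 0.464 FPKM, and these sums were not tested.

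**Figure D3:**
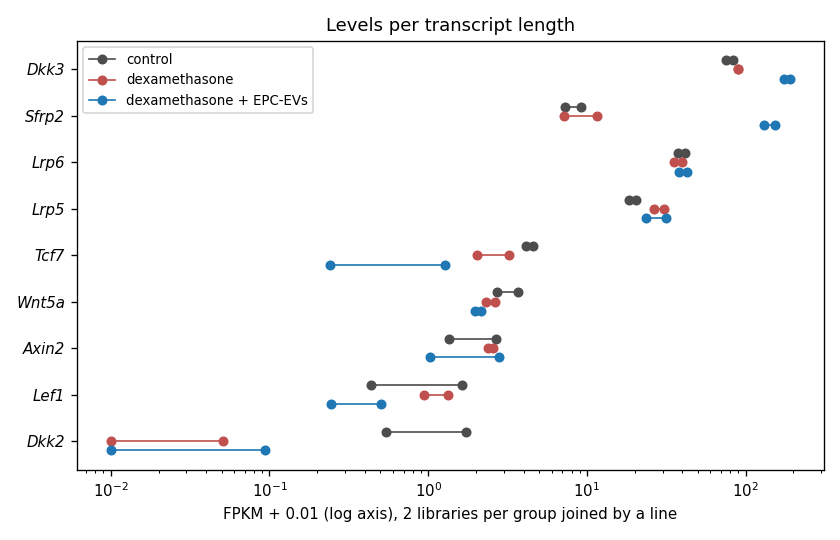
FPKM with 0.01 added (log axis) of the 9 Wnt genes, with the 2 libraries of a group joined by a line. Sfrp2 lies near 9 FPKM in control and dexamethasone and at 142 FPKM in dexamethasone + EPC-EVs, near the level of Dkk3, and both values of Tcf7 are lowest in dexamethasone + EPC-EVs, where those of Lef1 overlap control.

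The other genes of the pathway were described by lists of 102 genes, of which 78 had a row. Between dexamethasone + EPC-EVs and dexamethasone, 31 of 66 tested were called (47%, beside 39.8% of all genes), 22 of them higher (20.9% of all genes) and 9 lower (18.9%). The median log2 fold change of the 66 was 0.37, beside 0.01 over all genes. The called genes differed in base composition. The median GC content of the longest transcript was 56.4% in the 22 higher and 48.8% in the 9 lower genes, and over all genes tested it was 54.2% in those called higher and 43.9% in those called lower. After correction for GC content and length, 26 were called, of which 17 were among the 31. The shares of all genes above belong to the fit without this correction, so the 26 have no such share beside them. The part of GC content in these counts was not tested further.

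Among the Frizzled and other Wnt receptors, 6 of 12 tested rose and 1 fell, where 20.9% of all genes tested were called higher and 18.9% lower. Fzd2, a Frizzled receptor, had 45 and 0 counts in control, 45 and 43 in dexamethasone and 1000 and 1017 in dexamethasone + EPC-EVs, a log2 difference from dexamethasone of 3.58 (SE 0.22, edgeR adjusted p = 9.81e-07). Fzd5 rose by 1.37 (SE 0.23, edgeR adjusted p = 0.000642), while Fzd4 fell by 1.74 (SE 0.39, edgeR adjusted p = 0.00438), from 92 and 98 counts to 59 and 50. The RNAs of Lrp5 and Lrp6 did not pass the test. Of 5 Wnt ligands tested, 1 rose. This was Wnt10a, a canonical ligand, with 36 and 20 counts in dexamethasone and 222 and 157 in dexamethasone + EPC-EVs (log2 difference 1.82, SE 0.43, edgeR adjusted p = 0.00579), and its call was lost after correction for GC content and length (adjusted p = 0.280, and from 0.000162 upward over all alternatives). Of the 2 genes of Wnt secretion, Porcn and Wls, 0 were called.

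Beside Dkk3 and Sfrp2, 3 other secreted antagonists were tested, and 1 fell, where 39.8% of all genes were called and 18.9% were lower, so that counts this small in lists of 3 are near the background. Draxin, which encodes a secreted antagonist that binds LRP co-receptors, had 297 and 366 counts in dexamethasone and 235 and 192 in the deeper dexamethasone + EPC-EVs libraries, a log2 difference of -1.57 (SE 0.23, edgeR adjusted p = 0.000306). The bone antagonist Sost had 4 counts over the 6 libraries, all in dexamethasone + EPC-EVs replicate 2, and was chosen for mention after its values were seen. Of 3 membrane and cytoplasmic inhibitors, 1 rose (20.9% of all genes were called higher), Znrf3 (0.64, SE 0.20, edgeR adjusted p = 0.0219), a ligase that removes Frizzled from the cell surface, which was called under 10 of 15 alternatives. Of 3 tested R-spondins and their receptors, which sustain Wnt signals at the membrane, 0 were called, beside the 39.8% of all genes.

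Inside the cell, 6 of 16 tested genes of the cytoplasmic signal and the destruction complex rose and 1 fell, in all 43.8%, near the 39.8% of all genes. The Dishevelled genes Dvl2 (1.65, SE 0.19, edgeR adjusted p = 5.48e-05) and Dvl1 (1.35, SE 0.20, edgeR adjusted p = 0.000275), which relay the signal from Frizzled, had the largest rises, with 168 and 173 counts of Dvl2 in dexamethasone and 951 and 1103 in dexamethasone + EPC-EVs. After correction for GC content and length both stayed called at smaller sizes, Dvl2 at 1.02 and Dvl1 at 0.56. Apc2, a homologue of the tumour suppressor Apc, rose by 1.01 (SE 0.21, edgeR adjusted p = 0.00300), and its call was lost after correction for GC content and length (adjusted p = 0.640, and from 1.82e-05 upward over all alternatives). Of 14 nuclear partners, 7 rose and 2 fell, 64.3% beside the 39.8% of all genes. Pygo2, a co-activator of beta-catenin (1.58, SE 0.21, edgeR adjusted p = 0.000136), the co-repressor gene Ctbp1 (1.43, SE 0.16, edgeR adjusted p = 3.93e-05) and Ctnnbip1, an inhibitor of beta-catenin (1.19, SE 0.29, edgeR adjusted p = 0.00673), had the largest changes. With the same correction Pygo2 was at 0.85 and Ctbp1 at 0.86, both called. The call of Ctnnbip1 was lost under 3 of 15 alternatives (adjusted p up to 0.0870). The 2 that fell were Tcf7l2 (-1.04, SE 0.15, edgeR adjusted p = 0.000215) and Tcf7l1 (-0.82, SE 0.17, edgeR adjusted p = 0.00251), which encode DNA-binding factors of the same family as Lef1 and Tcf7, and they are named outside the rule, after their values were seen.

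Of 8 other target genes tested, 1 rose and 4 fell, 62.5% beside 39.8% of all genes. Fosl1, a subunit of the AP-1 factor, had 1769 and 1386 counts in dexamethasone and 497 and 370 in dexamethasone + EPC-EVs (log2 difference -2.80, SE 0.19, edgeR adjusted p = 1.59e-06). Myc, the growth-promoting factor, fell by 0.83 (SE 0.18, edgeR adjusted p = 0.00298), and Wisp1, a secreted matricellular protein of bone, rose by 0.90 (SE 0.15, edgeR adjusted p = 0.000710).

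**Figure D4:**
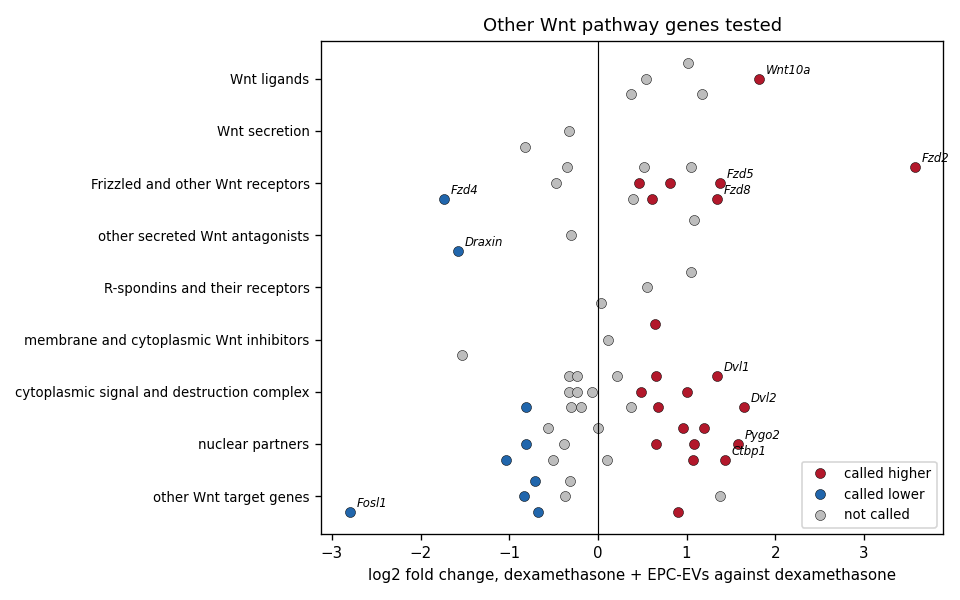
Log2 fold change (horizontal axis) between dexamethasone + EPC-EVs and dexamethasone of the 66 other Wnt pathway genes tested, by list (rows, with points spread vertically for legibility). Red points were called higher (22), blue points lower (9) and grey points were not called (35), and names are given for called genes with a large change, with Fzd2 farthest to the right and Fosl1 farthest to the left.

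Between dexamethasone and control, 0 of 63 other Wnt pathway genes tested were called by edgeR, beside 0.0544% of all genes. An unadjusted edgeR p under 0.05 was found for 6, near the 10.9% of all genes. DESeq2 called 3, of 129 genes it called in all, and the number of genes it tested is not given here. Between dexamethasone + EPC-EVs and control, 31 of 66 were called (47%, beside 36.4% of all genes), 23 higher and 8 lower. Wnt6, a canonical ligand, had 0 and 1 counts in control, 26 and 18 in dexamethasone and 100 and 90 in dexamethasone + EPC-EVs (edgeR adjusted p = 0.00350 against control), a ratio to control of 83.6 per count (95% interval 14.8 to 3320, for counting error only). Other rises against control, up to 3 from each list, were those of Fzd2 (4.32), Fzd8 (2.37), Wnt10a (2.20), the R-spondin receptor gene Lgr6 (3.00), Ctbp1 (2.28), Dvl1 (2.04), Pygo2 (1.98), Dvl2 (1.81), the co-repressor gene Tle2 (1.59) and Apc2 (1.17). The call of Fzd2 against control, where 1 control library was at 0, was made under 13 of 15 alternatives, with log2 values between 3.41 and 12.7 and adjusted p up to 0.246, so its size is not well set. Notum, which encodes an enzyme that inactivates Wnt proteins, had 0 counts in control and 45 in dexamethasone + EPC-EVs. Set against 3 counts over the control libraries together, it was at least 6.60-fold higher, for counting error of the 0 only. It was called under 7 of 13 alternatives. Falls against control were found for Fosl1 (2.78 on the log2 scale), Fzd4 (2.04), Tnfrsf11b (1.54), which encodes the decoy receptor osteoprotegerin, Myc (1.10) and Draxin (0.97). The calls of Draxin (adjusted p up to 0.260) and Apc2 (adjusted p up to 0.868) against control were each made under 10 of 15 alternatives. That of Wnt10a was made under 13 (adjusted p up to 0.562), and those of Lgr6 (up to 0.347), Tle2 (up to 0.363) and Pygo2 (up to 0.0552) under 14. After correction for GC content and length, Dvl1 (0.84), Dvl2 (0.85) and Ctbp1 (1.41) stayed called, while Apc2 was at -0.072. Over all alternatives, the lowest log2 values against control were 0.42 for Wnt10a, 0.85 for Lgr6, 0.40 for Tle2 and 0.83 for Pygo2. These differences share the dexamethasone + EPC-EVs libraries with those given against dexamethasone.

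The genes whose pattern over the 6 libraries was most like that of Axin2, among 9222 genes averaging 10 CPM or more, were Pycr1 (Pearson's r = 0.982), Mpv17l2 (0.967), Gpd2 (0.959), Ago4 (0.950) and Exo1 (0.943). In all, 12 genes had an r above 0.9. These values describe 6 libraries that share their groups and differ in depth, and no test was made.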

How the data were processed

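RNA of 6 libraries, 2 per group, was analysed from the gene table. The authors removed reads with adapters or low quality, aligned the rest to GRCm38 with HISAT2 in its stranded RF mode, counted them on genes with HTSeq 0.6.1 and deposited the counts without normalization. The methods describe gene FPKM as sums over transcripts, while the FPKM deposited beside the counts equal those counts scaled by 1 length per gene and by library total. They served here for levels between genes and for limma alternatives. The annotation release and the strand option of HTSeq are not given in the sources used here. The transcript table was not used.

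Counts were fitted over all genes with edgeR 4.0.16 in R 4.3.3 (TMM, filterByExpr, robust quasi-likelihood test) on the 4 libraries of each comparison, with Benjamini-Hochberg adjustment and a call at an adjusted p under 0.05. The script was tested on simulated data. The alternatives were other normalizations and filters, DESeq2 1.42.0, all 6 libraries in one fit, a replicate block, leaving out each library, limma 3.58.1 on log2(FPKM + 1) and log2(FPKM + 0.1), leaving out mitochondrial genes, and removing a loess trend (span 0.4) on GC content and transcript length. The Wnt genes and the lists were chosen with earlier results of these data known. All of the Wnt genes chosen are named, and from each list of other Wnt genes up to 3 called genes with the largest absolute log2 fold change in a comparison. The check of the TATAAA letters was added after the promoters were seen. Coordinates are those of GENCODE vM21 (21646 of 21686 genes matched), and promoters are from RefSeq, GRCm38.p6.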

Additional observations from a re-analysis of the deposited data

How the results depend on the processing

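Each group had 2 libraries, so each SD rests on 1 difference between replicates and each call on 2. Where 1 library is left out, the spread comes from the pair of the other group alone. No pair agreed within sampling noise, so none was counted as 1 library (chi-square per degree of freedom of 16.6 for the control pair, 7.17 for the dexamethasone pair and 20.1 for the dexamethasone + EPC-EVs pair). Dkk2, Lef1, Tcf7 and Axin2 held too few counts for small differences. For dexamethasone against control, 7 genes were called, and 248 without the filter on low counts, 129 by DESeq2, 43 with a replicate block, 0 in limma with either pseudocount, 1 without mitochondrial genes, 16 after correction for GC content and length and between 9 and 2200 with 1 library left out, the highest without control replicate 1. Of the 9 Wnt genes, 0 to 2 were then called. Of the other Wnt genes, 0 were called, and 3 without the filter, 3 by DESeq2 and between 0 and 15 with 1 library left out. For dexamethasone + EPC-EVs against dexamethasone, leaving out 1 library gave 3250 to 4813 genes (5397 with all), 2 to 4 of the Wnt genes (3) and 20 to 32 of the other Wnt genes (31), the lowest count of each of the first and last without dexamethasone replicate 2. Against control it gave 3375 to 6231 genes (4916), 2 to 5 of the Wnt genes (4) and 22 to 34 of the other Wnt genes (31).

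Directions changed for genes that were not called, and for Apc2 against control. For dexamethasone against control, the log2 differences became -0.010 (Dkk3), -0.077 (Sfrp2) and -0.066 (Axin2) after correction for GC content and length, and with 1 library left out they ranged from -0.26 to 0.41 (Sfrp2), from -0.60 to 1.36 (Lef1) and from -0.21 to 0.83 (Axin2). For dexamethasone + EPC-EVs against dexamethasone, that of Lrp5 became 0.025 without the filter, 0.010 with all 6 libraries and -0.20 to 0.19 with 1 library left out, that of Wnt5a 0.019 after the correction, and that of Axin2 -1.20 to 0.24 with 1 library left out. Against control, those of Lrp5 (-0.12) and Apc2 (-0.072) changed sign after the correction, and that of Axin2 was -0.98 to 0.53 with 1 library left out. That of Lrp6 was -0.0064 with DESeq2's size factors, -0.057 with upper-quartile scaling, -0.021 with the stricter filter and -0.078 to 0.12 with 1 library left out. The causes were not tested.

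The libraries of different groups share replicate numbers in the labels. Their deviations correlated at 0.14 between control and dexamethasone, 0.037 between control and dexamethasone + EPC-EVs and -0.0022 between dexamethasone and dexamethasone + EPC-EVs over 9223 genes, so the numbers were not taken as pairs. With a replicate block, 5366 genes and 4 Wnt genes were called in dexamethasone + EPC-EVs against dexamethasone, and 4679 and 3 against control. DESeq2 gave no adjusted p between dexamethasone and control for Wnt5a, Dkk2, Sfrp2, Lef1, Tcf7 and Axin2. Dkk2 without control replicate 2 in that comparison, and Notum against control in 2 alternatives, gave no value.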
